A study of Mus musculus with 9 samples.

Results

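The miR-17-92 and miR-106b-25 clusters are groups of microRNA (miRNA) hairpins that are cut from shared transcripts, and their 10 precursors were followed here in small RNA libraries of mouse atrial appendages. The members were taken by name from a fixed list of miRBase precursors: mmu-mir-17, mmu-mir-18a, mmu-mir-19a, mmu-mir-19b-1, mmu-mir-19b-2, mmu-mir-20a and mmu-mir-92a-1 for miR-17-92, and mmu-mir-106b, mmu-mir-93 and mmu-mir-25 for miR-106b-25. They are 10 of the 661 miRNA precursors, and of the 996 small RNA features of all classes, that the 9 libraries list. All 10 passed the filter on low counts, as did 209 miRNA precursors and 520 features in all.

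The 9 libraries came from C57BL/6 mice in 3 groups of 3. The curcumin group was 18 months old and received curcumin, the main polyphenol of turmeric, at 100 mg/kg daily in skim milk between the ages of 12 and 18 months. The old group was 18 months old without curcumin, and the young group was 5 months old without curcumin. The labels do not say whether the mice without curcumin drank the milk alone, nor do they give the sex of the mice or say whether tissue was pooled. The method, PANDORA-seq, treats RNA with AlkB, which removes some methyl marks from bases, and with T4 polynucleotide kinase, which repairs RNA ends, before fragments of 15 to 45 nucleotides are ligated and sequenced.

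Each miRNA guides an Argonaute protein to messenger RNAs that pair with its seed, the bases 2 to 8 of the mature strand, and lowers their translation or stability. The miR-17-92 cluster is known as a growth-promoting miRNA cluster that is switched on by Myc and E2F factors, and in mouse hearts it supports the division of young heart muscle cells. The miR-106b-25 cluster is its paralogue and rides in an intron region of Mcm7, a gene for a DNA replication helicase subunit. Members of both clusters are known to repress cell cycle inhibitors and pro-apoptotic messages such as those of Cdkn1a and Bcl2l11, and miR-25 is known from mouse heart to repress the calcium pump gene Atp2a2.

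The mature strands show how the 10 precursors fall into 4 seed groups, and they are shown because reads of nearly identical strands can be told apart only by the bases outside the seed. Capitals mark the seed. Sequences are those of RefSeq for the build GRCm38.p6, which matched all 10 precursors by name. The strand shown is the better known arm of each hairpin, while the deposited values do not separate the arms.
mmu-miR-17-5p: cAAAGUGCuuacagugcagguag
mmu-miR-20a-5p: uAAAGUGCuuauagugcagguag
mmu-miR-93-5p: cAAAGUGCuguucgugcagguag
mmu-miR-106b-5p: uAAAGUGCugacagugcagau
mmu-miR-18a-5p: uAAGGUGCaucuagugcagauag
mmu-miR-19a-3p: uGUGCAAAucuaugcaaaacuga
mmu-miR-19b-3p: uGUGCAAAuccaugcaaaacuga
mmu-miR-92a-3p: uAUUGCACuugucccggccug
mmu-miR-25-3p: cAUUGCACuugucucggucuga

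The first 4 lines share the seed AAAGUGC and draw members from both clusters, and miR-18a carries the related seed AAGGUGC alone among the members. The next 2 lines share GUGCAAA and belong to miR-17-92 only, while miR-92a and miR-25 share AUUGCAC across the clusters. Within a seed group the strands stay close beyond the seed. miR-17-5p and miR-20a-5p differ at 2 of 23 bases, miR-19a-3p and miR-19b-3p at 1 of 23, and miR-92a-3p and miR-25-3p at 3 of the 21 bases compared. A read with a sequencing error at the 1 base that separates miR-19a-3p and miR-19b-3p could therefore be counted for the neighbour. In the other pairs this would take more than 1 changed base.

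On mm10 the 6 miR-17-92 hairpins proper lie on the plus strand at chr14:115043671-115044506, a span of 836 bases in which each hairpin overlaps an annotated exon of the long noncoding host gene Mir17hg. The 3 miR-106b-25 hairpins lie on the minus strand at chr5:138165321-138165818, a span of 498 bases inside Mcm7. There mmu-mir-93 and mmu-mir-25 overlap an exon of at least 1 annotated Mcm7 transcript, while mmu-mir-106b is intronic in all of them. The precursor mmu-mir-19b-2 stands at chrX:52741983-52742066 on the minus strand and belongs by position to the miR-106a-363 cluster, which spans chrX:52741693-52742567.

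The 2 loci of miR-19b give the same mature strand, and their hairpins also agree at the bases just before it, as the next 2 stretches show. Capitals mark bases that are the same at the same place in the paired hairpins.
mmu-mir-19b-1: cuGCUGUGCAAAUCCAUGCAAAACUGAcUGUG
mmu-mir-19b-2: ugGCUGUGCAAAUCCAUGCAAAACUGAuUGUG

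The shared run is 25 bases long and holds the whole mature strand of 23 bases, so a read that ends inside it cannot be placed at either locus. The deposited reads were divided accordingly: the counts of mmu-mir-19b-1 and mmu-mir-19b-2 were equal in 7 of the 9 libraries and differed by 1 read in the other 2, young replicate 2 and old replicate 3. The values of these 2 precursors are therefore 1 measurement shown under both names, and their sum is the amount of miR-19b. The same comparison for miR-92a gave a shared run of 22 bases.
mmu-mir-92a-1: AugGUAUUGCACUUGUCCCGGCCUGuuGAg
mmu-mir-92a-2: AaaGUAUUGCACUUGUCCCGGCCUGagGAa

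Here the division was not equal. mmu-mir-92a-1 had between 13.5 and 141 reads per library, and mmu-mir-92a-2, its copy on the X chromosome, had between 0.5 and 6.5.

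Libraries held 12899427 to 19707803 clean reads, of which miRNAs made up 3.21% to 4.22% in the curcumin group, 1.23% to 3.32% in the old group and 1.34% to 4.66% in the young group. The 95% Wilson intervals of these shares reach at most 0.00957 percentage points to either side, and these intervals, those of other shares and the floors cover counting error only. Because the miRNA share differed more than 3 times between libraries, each member is given both as clean RPM, its reads per 1000000 clean reads, and as miRNA RPM, its reads per 1000000 miRNA reads. The labelled tissue carried its markers: the heart muscle miRNAs mir-1a, mir-133a and mir-208a had reads in all 9 libraries and the muscle list summed to between 306853 and 430735 miRNA RPM. mir-499 had 0 to 5 reads and mir-208b 0 to 2.

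The level order of the members was steep and was the same after division by the length of the mature strand. mmu-mir-93 averaged 1997 and mmu-mir-25 1476 miRNA RPM over the 9 libraries, and the third, mmu-mir-17, averaged 243. miR-19b, with both loci summed as 1 measurement, came next at 196, with libraries between 70.4 and 454 that overlapped those of mmu-mir-17. mmu-mir-92a-1 (112) and mmu-mir-20a (90.3) followed, and their libraries overlapped each other and those of miR-19b. Taken singly, as the fits below take them, mmu-mir-19b-1 and mmu-mir-19b-2 averaged 98.1 and 97.8. mmu-mir-106b (51.7), mmu-mir-18a (37.5) and mmu-mir-19a (19.4) were the rarest, each with libraries that overlapped those of its neighbour in this order. mmu-mir-93 stood above mmu-mir-25 in every library, although their ranges over libraries overlapped, by a ratio of reads between 1.03 in curcumin replicate 2 and 1.59 in old replicate 3, and in every library both exceeded mmu-mir-17. The libraries of mmu-mir-17, at 188 to 438 miRNA RPM, did not overlap those of mmu-mir-92a-1, at 64.2 to 165. The reads behind the members ran from 9175 for mmu-mir-93 to 120 for mmu-mir-19a over the 9 libraries.

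**Figure D1:**
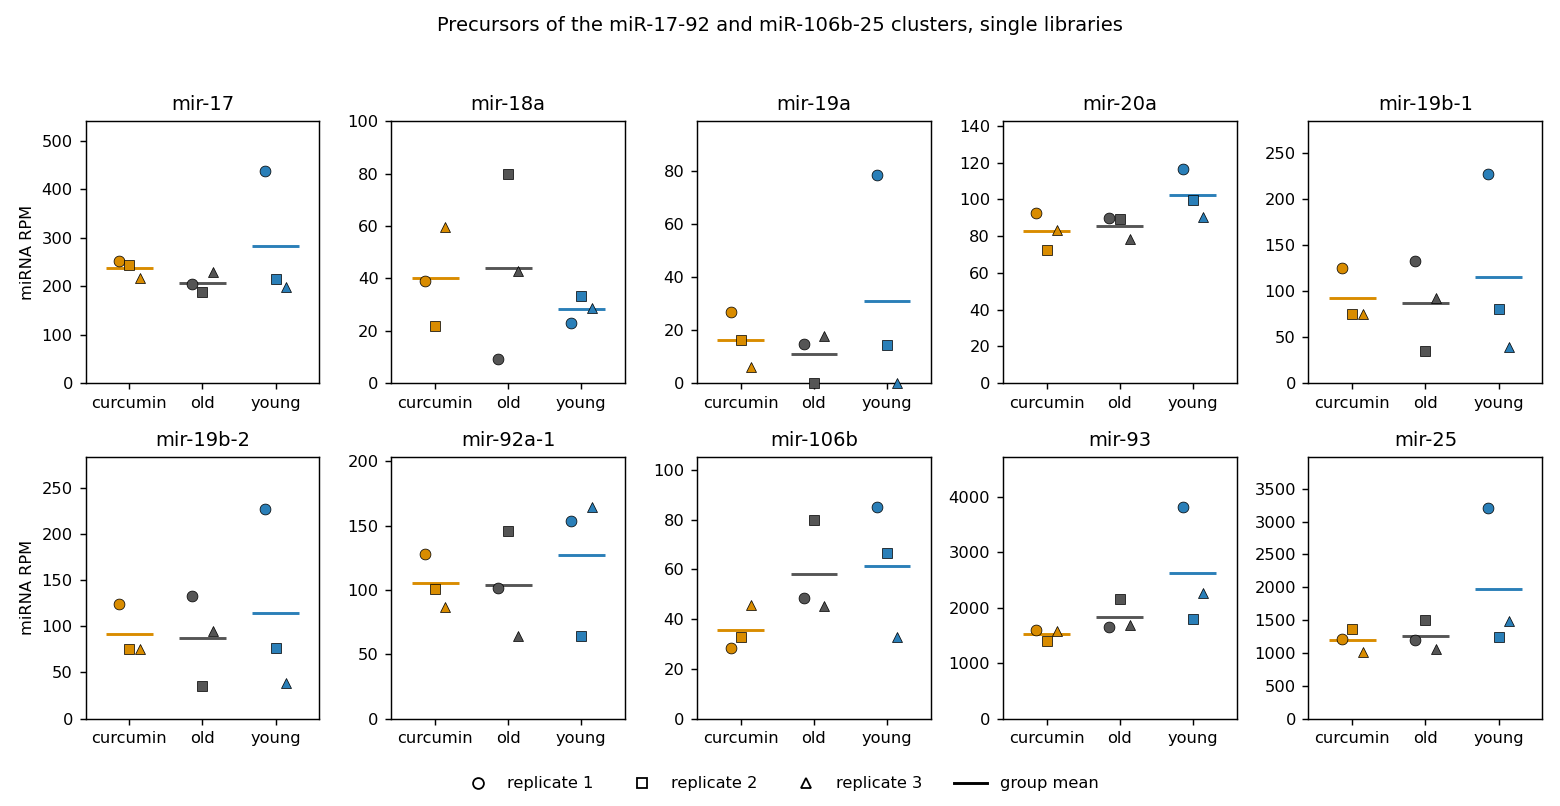
Levels in miRNA RPM (linear y axes that start at 0 and differ between panels) of the 10 precursors in each library, with curcumin, old and young mice from left to right, symbols for the replicate number and a bar for the group mean. Young replicate 1 is the highest point in 8 of the 10 panels, for example 3820 for mir-93 against 1406 to 2263 in the other 8 libraries, while mir-18a has it among its lower points at 22.9.

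The summed clusters overlapped between the groups on both scales, except that miR-106b-25 per miRNA read lay lower in every curcumin than in every young library. Of single miRNAs, 21 of the 209 tested (10%) lay lower in the same way. Treated mice had a higher mean than old mice per clean read for both clusters, and per miRNA read for miR-17-92 but not for miR-106b-25. The miR-17-92 sum, which includes both miR-19b loci, was 25.3, 25.6 and 21.3 clean RPM in curcumin replicates 1 to 3, against 22.8, 7.03 and 14.7 in old mice. In young mice it was 58.9, 7.83 and 10.5. Curcumin mice averaged 24.1 ± 2.43 and old mice 14.8 ± 7.88, and the groups overlapped, since old replicate 1 lay above curcumin replicate 3 (SD, n = 3 each). Young mice averaged 25.7 ± 28.7, an SD larger than the mean. In bulk tissue, fewer cells of a type and less RNA per cell cannot be told apart.

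The miR-106b-25 sum, 3.61 to 6.75 times as large in reads, had the same outline. It was 91.3, 119 and 93.0 clean RPM in curcumin mice, against 96.4, 45.8 and 66.2 in old mice. In young mice it was 332, 41.7 and 71.2. The means were 101 ± 15.3 in curcumin, 69.5 ± 25.4 in old and 148 ± 160 in young mice (SD, n = 3 each). Old replicate 1 lay within the range of the curcumin libraries, and young replicate 1 lay above all the other 8.

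In miRNA RPM the clusters parted in direction. The miR-17-92 sum averaged 666 ± 107 in curcumin and 626 ± 57.2 in old mice, a difference of 39.8 that is smaller than the spread within either group. The miR-106b-25 sum averaged 2765 ± 112 in curcumin and 3144 ± 513 in old mice, which turned its order round relative to the clean-read scale. In young mice the sums averaged 802 ± 400 and 4667 ± 2148 (SD, n = 3 each). The miRNA share of clean reads, which links the scales, was itself higher in 2 of 3 curcumin libraries than in every old library, and its part in the differences per clean read was not tested.

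**Figure D2:**
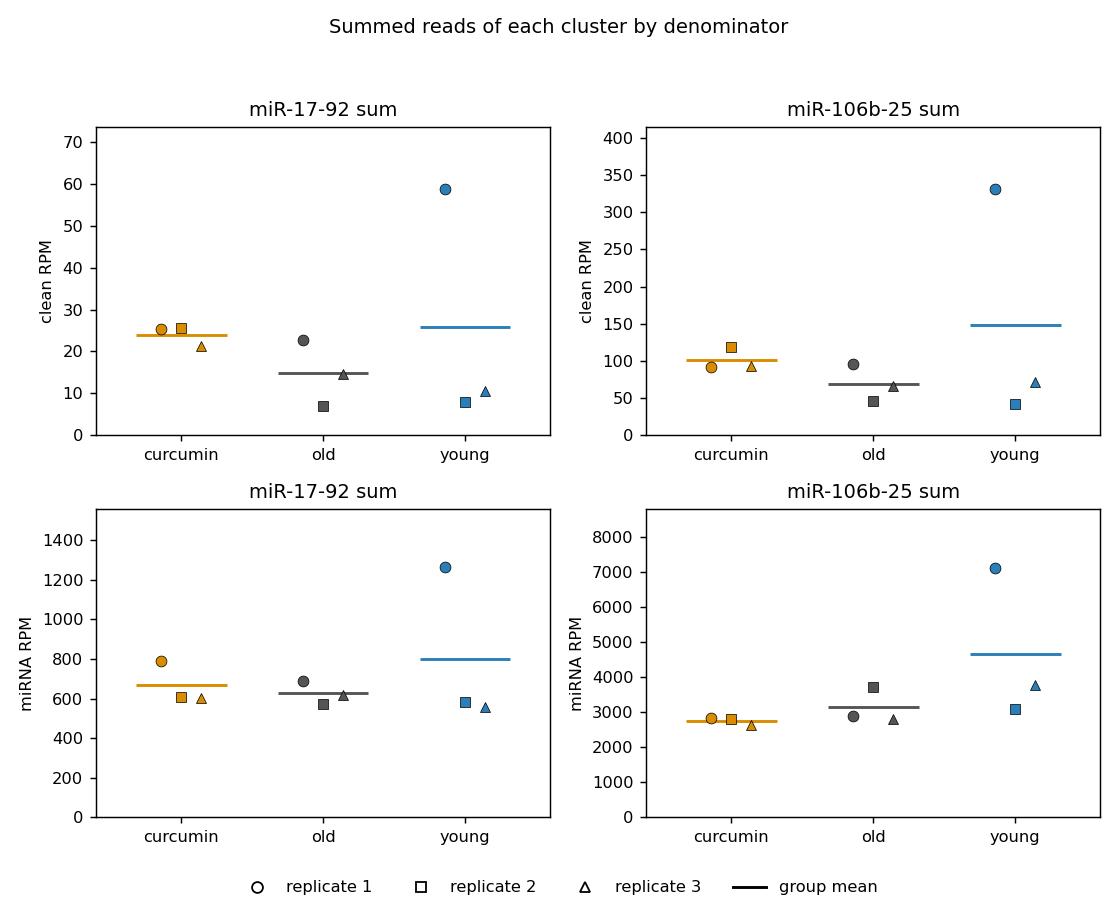
Summed reads of the miR-17-92 precursors (left) and miR-106b-25 precursors (right) in clean RPM (top) and in miRNA RPM (bottom) in each library, with curcumin, old and young mice from left to right and bars for group means; y axes start at 0. On both scales young replicate 1 (332 and 7117 for miR-106b-25) is apart from the other 8 libraries, which lie between 41.7 and 119 clean RPM and between 2637 and 3778 miRNA RPM.

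The spread of the young group came from 1 library. Young replicate 1 was the highest of all 9 libraries for 9 of the 10 members per clean read and for 8 of 10 per miRNA read. Set against the median of the other 8 libraries, the members stood at 1.12 to 11.6 times that level per clean read (median 3.82). Per miRNA read they stood at 0.631 to 5.37 times (median 2.16). The 196 other miRNA precursors with a mean of at least 10 reads had a median of 1.57 per clean read and 0.906 per miRNA read, and young replicate 1 was the highest library for 48.0% and 17.3% of them. The exceptions among the members were mmu-mir-18a, highest in curcumin replicate 3 per clean read and in old replicate 2 per miRNA read, and mmu-mir-92a-1, highest in young replicate 3 per miRNA read. These ratios describe 1 library and carry no test.

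Part of the blood and immune cell markers stood high in the same library, and others did not. The leukocyte list (mir-142a, mir-150, mir-155 and mir-223), all 4 of which had reads in every library, summed to 7908 miRNA RPM in young replicate 1. The other libraries lay between 2643 and 3811 in curcumin, between 2391 and 3461 in old and between 2547 and 2735 in young mice. mir-142a, found throughout blood cell lineages, made up most of that excess, with 5941 miRNA RPM there and 1045 to 2245 in the other 8, and mir-223, of myeloid cells, had 1847 there and 869 to 1356 elsewhere. The other two went the opposite way: mir-150, of mature lymphocytes, had 87.1 miRNA RPM in young replicate 1 and up to 385 elsewhere, and mir-155 had 32.7 there and 93.4 to 286 elsewhere, each at its lowest of the 9 libraries. The red blood cell list (mir-144, mir-451a, mir-486a and mir-486b; reads in every library for all 4) summed to 6353 in young replicate 1, against 766 to 1422 in curcumin, 1222 to 3461 in old and 2835 to 4033 in the other 2 young libraries. Its excess lay in mir-144, at 1732 there and 93.4 to 288 elsewhere, and mir-451a, at 3776 there and 146 to 704 elsewhere. mir-486a and mir-486b stood at 426 and 419 miRNA RPM in young replicate 1, below the other young libraries at 1253 and 1582 for mir-486a and 1177 and 1492 for mir-486b. In clean RPM they had 19.9 and 19.5 there, between the other young libraries at 16.8 and 29.8 for mir-486a and 15.8 and 28.1 for mir-486b. On that scale mir-155 was again lowest in young replicate 1, at 1.52, while mir-150 was not, at 4.06 against 3.14 in curcumin replicate 1. The part of such cells in the members' levels was not tested.

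**Figure D3:**
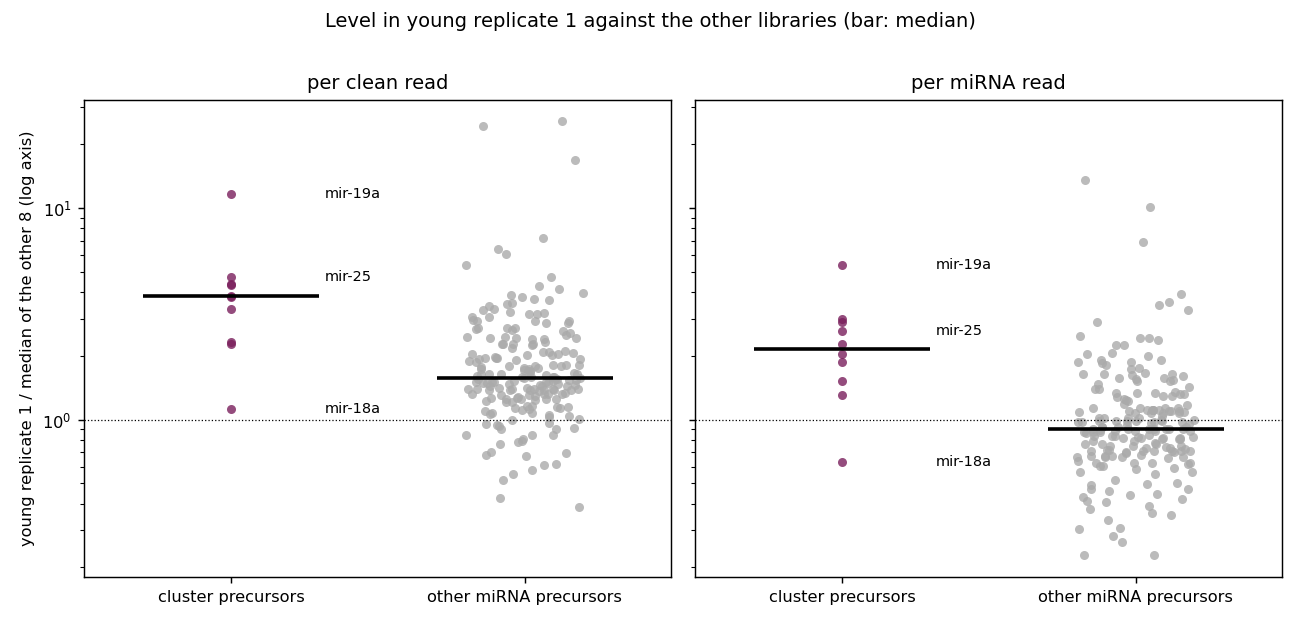
Level in young replicate 1 divided by the median of the other 8 libraries (logarithmic y axis) for the 10 cluster precursors (left in each panel) and 196 other miRNA precursors with a mean of at least 10 reads, per clean read and per miRNA read; the thick bar is the median and the dotted line marks equality. The median of the cluster precursors is 3.82 and 2.16 on the 2 scales, against 1.57 and 0.906 for the other precursors, and mir-18a is the lowest cluster precursor on both.

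The question of treatment, curcumin-treated against old mice of the same age, gave no call for any member. In the quasi-likelihood test of edgeR over all 520 features, with TMM scaling, which sets libraries to the same level for the bulk of features, 0 of 10 members had a Benjamini-Hochberg adjusted p under 0.05, and 0 of 520 features did (0%; 21 at an unadjusted p under 0.05, none of them a member). Of the members 9 of 10 had a positive log2 change with a median of 0.42, and with clean-read totals in place of TMM all 10 did (median 0.64), but with miRNA-read totals only 4 of the 9 tested did (median −0.05). Each count of members here and below takes mmu-mir-19b-1 and mmu-mir-19b-2 singly, although they are the same measurement. Over the 209 miRNAs the median was 0.25 with 161 positive, and over all 520 features it was 0.08. These scalings move everything measured. Clean-read totals put the median of all 520 features at 0.31 and that of the 209 miRNAs at 0.46, with 179 of these positive. miRNA-read totals put the median of all miRNAs tested at −0.25. The members' medians stood above these medians on each scale. The members' adjusted p lay between 0.917 and 0.988. All 8 cell type lists had a higher median in curcumin than in old mice on the clean-read scale. The leukocyte list (4 of 4 with reads) summed to 93.2 to 130 clean RPM in curcumin and 42.5 to 87.9 in old mice, without overlap. Taken singly, only mir-223 of the leukocyte list did not overlap between these groups, as for 30 of the 209 miRNAs tested (14.4%). mir-142a, mir-150 and mir-155 overlapped. The smooth muscle list (2 of 2) did not overlap either, at 584 to 774 in curcumin and 174 to 553 in old mice. Of this list only mir-143 separated so, as 1 of those 30 miRNAs, while mir-145a overlapped. Per miRNA read every curcumin library lay above every old one for mir-143, as for 9 of the 209 (4.31%). For mir-145a every one lay below, at 2846 to 3000 against 3901 to 4346 miRNA RPM, as for 31 of the 209 (14.8%). The heart muscle list overlapped in clean RPM, at 11504 to 18185 in curcumin and 3767 to 11949 in old mice. The part of these cell types in the members' changes was not tested.

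mmu-mir-17, the first hairpin of its cluster, was the member whose groups did not overlap per clean read. It had 8.11, 10.3 and 7.63 clean RPM in curcumin mice, against 6.82, 2.31 and 5.44 in old mice. All 3 curcumin libraries lay above all 3 old ones, which held for 1 of the 10 members and for 30 of the 209 miRNAs tested (14.4%). Its log2 change was 0.63 (SE 0.62, 95% interval −0.75 to 2.02; edgeR, adjusted p = 0.917). In miRNA RPM the separation was absent, with 253, 244 and 216 in curcumin and 206, 188 and 230 in old mice.

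mmu-mir-93 separated the same groups the other way once the scale was miRNA reads. It had 1605, 1406 and 1577 miRNA RPM in curcumin mice, against 1661, 2155 and 1686 in old mice. All 3 curcumin libraries lay below the old ones, as for 31 of the 209 miRNAs (14.8%), and no other member did so. In clean RPM the order was mixed, with 51.5, 59.4 and 55.6 in curcumin and 55.1, 26.5 and 39.9 in old mice. Its log2 change was 0.25 (SE 0.54, interval −0.97 to 1.46; edgeR, adjusted p = 0.955) with TMM scaling. In a fit of miRNAs alone with miRNA-read totals as library sizes it was −0.26 (SE 0.27; adjusted p = 0.725).

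mmu-mir-25 followed its neighbour on the clean-read scale. It had 38.9, 57.9 and 35.8 clean RPM in curcumin mice, against 39.6, 18.4 and 25.2 in old mice. The groups overlapped through old replicate 1, and the log2 change was 0.45 (SE 0.61, interval −0.93 to 1.82; edgeR, adjusted p = 0.942). mmu-mir-106b, the rarest of its cluster, had 0.914, 1.39 and 1.61 clean RPM in curcumin mice, against 1.61, 0.980 and 1.08 in old mice. Its log2 change of −0.12 (SE 0.60) was the only negative one among the members with TMM scaling, and it was 0.09 with clean-read totals.

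The remaining miR-17-92 members overlapped between these groups on both scales. mmu-mir-20a, which shares the miR-17 seed, had 2.97, 3.07 and 2.94 clean RPM in curcumin mice, against 2.98, 1.10 and 1.85 in old mice. The curcumin libraries were close together and old replicate 1 fell among them. mmu-mir-92a-1, whose mature strand is known from mice to restrain vessel growth, had 4.11, 4.25 and 3.05 in curcumin mice and 3.38, 1.79 and 1.52 in old mice. mmu-mir-19b-1, which gives the same mature strand as mmu-mir-19b-2, had 4.00, 3.18 and 2.66 in curcumin mice and 4.40, 0.432 and 2.18 in old mice. In both, old replicate 1 reached or passed part of the curcumin range. The log2 changes of these 3 were 0.40, 0.55 and 0.31.

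The 2 members with the fewest reads were mmu-mir-18a and mmu-mir-19a. mmu-mir-18a, known from mouse heart to repress the matrix genes Ccn2 and Thbs1, had 22, 16 and 30 reads in curcumin mice and 5, 17 and 17 reads in old mice. mmu-mir-19a had 15, 12 and 3 reads in curcumin mice and 8, 0 and 7 reads in old mice. The count of 0 in old replicate 2 allows up to 14.1 miRNA RPM, taking 3 reads as the limit of a count of 0, and the other old libraries stood at 14.9 and 17.7. Its 95% interval of the log2 change, −2.28 to 3.76, was the widest of the 10, while that of mmu-mir-18a, −0.68 to 1.98, was narrower than that of the far more abundant mmu-mir-25, −0.93 to 1.82.

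**Figure D4:**
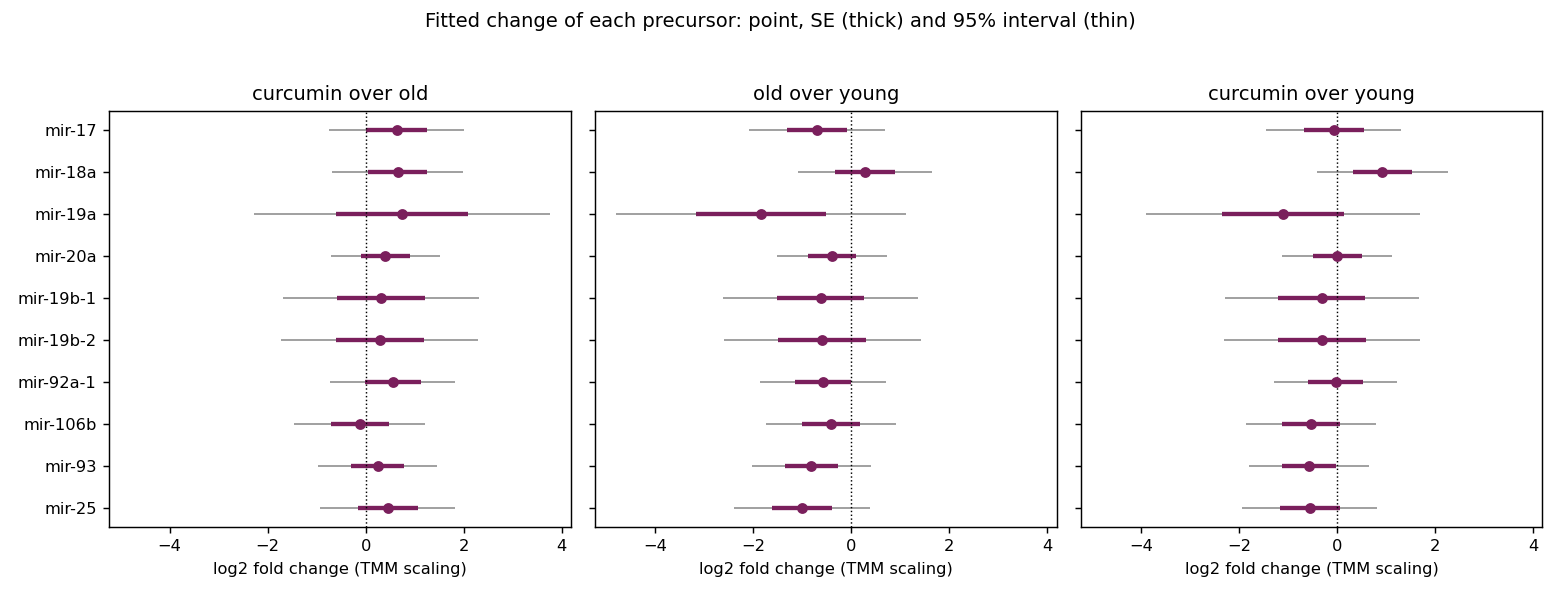
Fitted log2 fold changes of the 10 precursors (rows) in curcumin over old, old over young and curcumin over young mice (panels), with the standard error as a thick line and the 95% interval as a thin line; the dotted line marks 0. Every interval crosses 0, and with this TMM scaling the points lie right of 0 for 9 of 10 in the first panel, against 4 of 9 with miRNA-read totals, and left of 0 for 9 of 10 in the second.

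The effect of age, old against young mice, had the members mostly below 0, and with TMM scaling this rested on young replicate 1. Among the 10 members 9 had a negative log2 change (median −0.61), while the 209 miRNAs had a median of −0.15 and all 520 features one of −0.04. With clean-read totals 9 of 10 and with miRNA-read totals 8 of 9 were negative. No member was called, and no feature was (0 of 520, 0%; 5 unadjusted, none of them a member; edgeR, adjusted p of the members 0.999). Without young replicate 1 all 10 members were positive with TMM scaling, with a median of 0.41, and again none was called. The miRNAs as a whole also lay above 0 in that fit, with 135 of 217 positive and a median of 0.17. In miRNA RPM the turn was not shared by both clusters. Without that library, old minus young mice was −298 for the miR-106b-25 sum and 55.2 for the miR-17-92 sum.

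mmu-mir-25 had the largest fitted change after mmu-mir-19a, and its high values in young mice were those of 1 library. It had 1194, 1498 and 1063 miRNA RPM in old mice, against 3212, 1237 and 1481 in young mice. Young replicates 2 and 3 lay among the old libraries. With TMM scaling its log2 change was −1.01 (SE 0.62, interval −2.39 to 0.38; edgeR, adjusted p = 0.999) with all libraries and 0.13 without young replicate 1. mmu-mir-93 had 1661, 2155 and 1686 miRNA RPM in old mice, against 3820, 1803 and 2263 in young mice. Old replicate 2 lay between young replicates 2 and 3. With TMM scaling the log2 change of −0.82 (SE 0.55) became 0.09 without young replicate 1.

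The miR-17-92 members repeated this at lower levels. mmu-mir-17 had 206, 188 and 230 miRNA RPM in old mice, against 438, 214 and 198 in young mice. mmu-mir-19b-1 had 133, 35.2 and 92.1 in old mice and 227, 80.9 and 39.1 in young mice. In each, the last 2 young libraries overlapped the old ones. With TMM scaling the log2 changes of −0.70 and −0.63 became 0.35 and 1.07 without young replicate 1. mmu-mir-19a had 8, 0 and 7 reads in old mice and 72, 3 and 0 reads in young mice, so that 72 of its 120 reads in the study came from 1 library.

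mmu-mir-20a was the member whose age groups did not overlap per miRNA read. It had 89.7, 89.2 and 78.3 miRNA RPM in old mice, against 116, 99.9 and 90.5 in young mice. All old libraries lay below all young ones, the nearest being old replicate 1 at 89.7 and young replicate 3 at 90.5, and 7 of the 209 miRNAs did the same (3.35%). Per clean read the groups overlapped, at 2.98, 1.10 and 1.85 clean RPM in old mice and 5.43, 1.34 and 1.71 in young mice. Its log2 change was −0.39 (SE 0.50) with TMM scaling. In the fit with miRNA-read totals its log2 change was −0.27 (SE 0.32; edgeR, adjusted p = 0.985), where 0 of 9 members tested and no miRNA was called (0%; 3 unadjusted, none of them a member).

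mmu-mir-18a was the exception in sign, and per miRNA read it had no excess in young replicate 1. Per clean read it stood at 1.07 there, above the other young libraries at 0.447 and 0.543. It had 5, 17 and 17 reads in old mice, against 21, 7 and 7 reads in young mice. Scaled to miRNA reads, old mice had 9.34, 79.8 and 42.9 miRNA RPM, against 22.9, 33.3 and 28.8 in young mice. The old libraries spread on both sides of the young ones, and the log2 change was 0.28 (SE 0.61). mmu-mir-92a-1 differed in another way: it had 102, 146 and 64.4 miRNA RPM in old mice and 154, 64.2 and 165 in young mice, so that replicates 1 and 3 were the high young libraries.

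Treated old mice set against young mice share libraries with both comparisons above, and again no member was called (0 of 520 features, 0%; 19 unadjusted, none of them a member). The log2 changes were negative for 8 of 10 members with a median of −0.31, against 0.07 over the 209 miRNAs, and lay between −1.11 for mmu-mir-19a and 0.93 for mmu-mir-18a. With clean-read totals 7 of 10 were negative, with miRNA-read totals 8 of 9, and with the replicate number as a block 4 of 10. Without young replicate 1 and with TMM scaling all 10 were positive with a median of 0.76, against 0.39 over 217 miRNAs, of which 151 were positive. In miRNA RPM the miR-106b-25 sum of curcumin minus young mice was still negative without that library, at −677. mmu-mir-93 had the lowest unadjusted p of the members on the scale of miRNA-read totals, with 1605, 1406 and 1577 miRNA RPM in curcumin mice against 3820, 1803 and 2263 in young mice. All 3 curcumin libraries lay below all 3 young ones, as for 21 of the 209 miRNAs (10%). The log2 change in that fit was −0.78 (SE 0.27; edgeR, unadjusted p = 0.0151, adjusted p = 0.259), and no miRNA was called there (0%; 28 unadjusted). In curcumin against old mice that fit also called no miRNA (0%; 18 unadjusted), and 0 of the 9 members it tested.

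The libraries numbered 1 deviated from their group means in like ways over all features (correlation 0.806 between old and young, 0.330 between curcumin and young, 0.274 between curcumin and old), so the comparisons were repeated without them, with 2 libraries a group. Curcumin against old mice then gave 73 called features of 519 (14.1%), none of them among the 9 members tested (2 at an unadjusted p under 0.05), all of which were positive (median 0.82, against 0.58 over 210 miRNAs). mmu-mir-25 came nearest, with a log2 change of 0.82 (SE 0.33; edgeR, adjusted p = 0.0847), followed by mmu-mir-17 with 0.95 (SE 0.43; adjusted p = 0.118). With miRNAs fitted alone on these libraries, 6 of 9 members were positive with a median of 0.22, against 0.043 over 206 miRNAs, and mmu-mir-25 stood at 0.22 (adjusted p = 0.608) and mmu-mir-17 at 0.42 (adjusted p = 0.489). Old against young mice gave 0 of 519 (0%; 17 unadjusted), with 5 of 9 members positive and a median of 0.11. Curcumin against young mice gave 67 of 519 (12.9%) and no member (4 unadjusted), with all 9 positive and a median of 0.70, and mmu-mir-17 at 1.07 (SE 0.44; adjusted p = 0.107). There all miRNAs had a median of 0.55, and with miRNAs fitted alone 8 of 9 members were positive with a median of 0.17. mmu-mir-19a did not pass the filter without the libraries numbered 1.

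The sums give the levels behind these fits. Without number 1, the miR-106b-25 sum averaged 106 clean RPM in curcumin, 56.0 in old and 56.4 in young mice, and the miR-17-92 sum averaged 23.4, 10.9 and 9.18. In miRNA RPM the order of miR-106b-25 turned, with 2723 in curcumin, 3264 in old and 3442 in young mice, and miR-17-92 averaged 605, 596 and 571. Within number 1 alone, the miR-106b-25 sum of the curcumin library minus that of the old one was −5.11 clean RPM, while within numbers 2 and 3 it was 72.8 and 26.9.

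The makeup of each cluster was compared between libraries as shares of its reads. mmu-mir-93 made up 50.0% of the miR-106b-25 reads in curcumin replicate 2 (95% Wilson interval 47.9 to 52.2) and 60.3% in old replicate 3 (57.4 to 63.2), the extremes of the 9 libraries. Young replicate 1, with a level far above the rest, had 53.7% (52.5 to 54.9), inside that range. mmu-mir-106b made up 0.871% to 2.14%, with its hairpin in the same 498 bases. In miR-17-92, mmu-mir-17 ranged between 29.9% and 40.2% and mmu-mir-20a between 9.22% and 17.1%. mmu-mir-18a stood at 1.36% in old replicate 1 (0.583 to 3.14) and 13.9% in old replicate 2 (8.89 to 21.2), whose intervals do not overlap in libraries of the same group. Ligation and the AlkB and kinase steps can favour some ends over others, so shares between different miRNAs are not molar amounts.

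**Figure D5:**
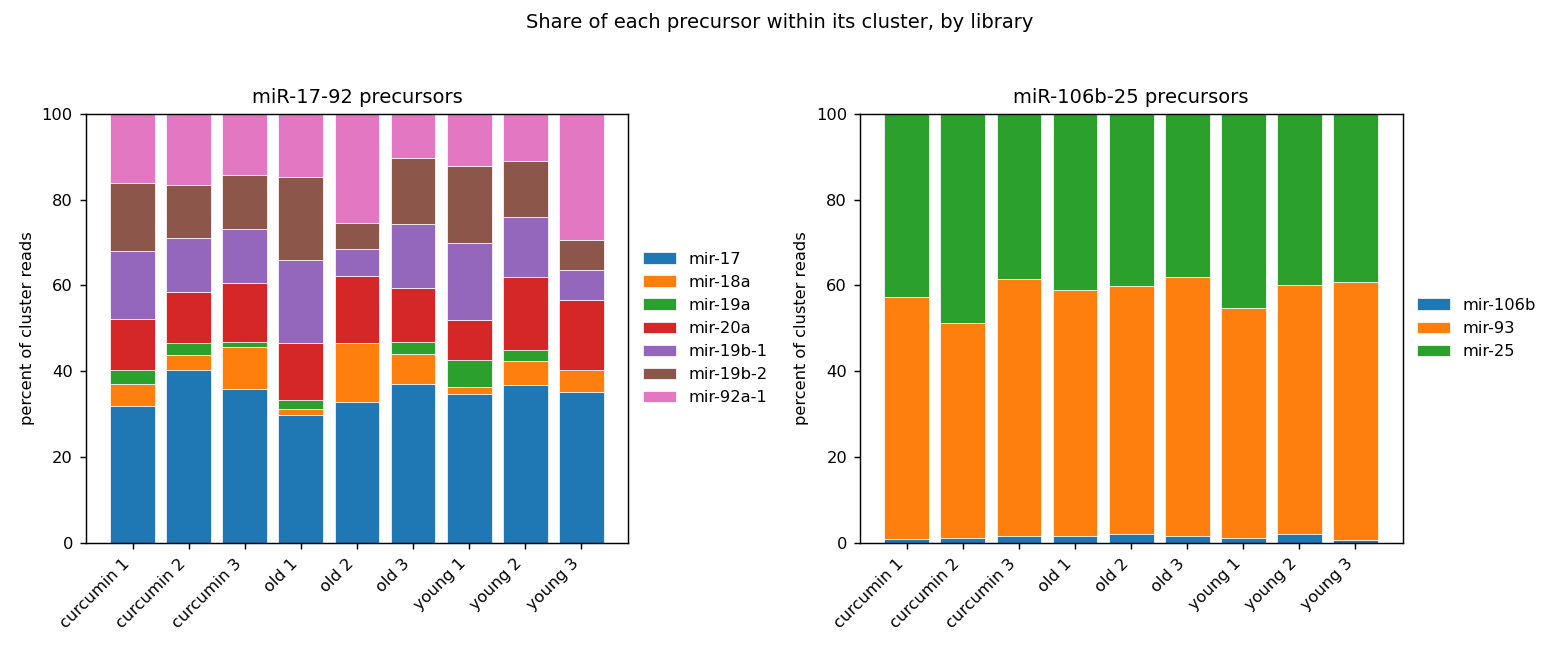
Percent of cluster reads from each precursor in the 9 libraries, stacked to 100%, for miR-17-92 (left) and miR-106b-25 (right), with curcumin, old and young libraries from left to right. mir-93 and mir-25 fill nearly all of miR-106b-25 in every library, with mir-93 between 50.0% and 60.3%, and mir-17 holds 29.9% to 40.2% of miR-17-92. The 2 miR-19b loci together hold 12.3% to 38.6%, more than mir-17 in old replicate 1 and young replicate 1.

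The balance between the clusters was set beside the groups. Reads of miR-106b-25 over those of miR-17-92 were 3.61, 4.63 and 4.38 in curcumin mice. They were 4.23, 6.52 and 4.51 in old mice, and young mice had 5.64, 5.33 and 6.75. The curcumin and old ranges overlapped, as did the old and young ranges, and the 3 curcumin values lay below the 3 young ones. This ratio was given no test.

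The other precursors of the miR-106a-363 cluster and most loci with a member's seed were nearly silent. mmu-mir-20b had 0 to 4 reads per library and mmu-mir-106a 0 to 2, while mmu-mir-18b and mmu-mir-363 had 1 read each in the whole study. mmu-mir-32, which carries the seed of miR-92a and miR-25, had 0, 7 and 8 reads in curcumin, 11, 4 and 4 in old and 18, 8 and 1 in young mice. mmu-mir-92b and mmu-mir-367 were listed in no library, nor were the precursors of the mir-302 and mir-290 families searched, whose strands differ from the members' seeds in bases 2 to 8. None of these loci passed the filter on low counts.

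The miRNAs whose profile over the 9 libraries was nearest to each cluster were found by the root mean square difference of centred log2(CPM + 1), among 199 tested precursors that were not members, as a description. For miR-17-92 these were mmu-mir-301a at 0.129, mmu-mir-223 at 0.158 and mmu-mir-140 at 0.188, where the median of all was 0.546. For miR-106b-25 they were mmu-mir-301a at 0.249, mmu-mir-223 at 0.257 and mmu-mir-186 at 0.273, with a median of 0.571. The distance between the clusters themselves was 0.262, so that mmu-mir-301a and mmu-mir-223 lay nearer to each cluster than the other cluster did. mmu-mir-223, a miRNA of myeloid cells, had 30.7 to 44.2 clean RPM in curcumin mice and at most 28.8 in old mice. It was 1 of the 30 of 209 miRNAs tested (14.4%) that separated these groups so. Young replicate 1 had 86.1 clean RPM, against 13.8 and 18.2 in the other young libraries. In miRNA RPM curcumin and old mice overlapped, at 872 to 1356 and 869 to 1057. All these profiles share the libraries, their depth and the peak in young replicate 1.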

How the data were processed

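Small RNA of 9 atrial appendage samples was measured by PANDORA-seq, and groups followed the labels. The authors trimmed reads with cutadapt 2.5 and used mm10, per the submitters' processing notes; which program annotated the reads is not given in the sources used here, nor is any use of molecular identifiers. The authors' deposited values are expected counts per annotation, not normalized, in which a read matching several annotations was divided among them. Reads matching and not matching the genome were summed for each feature (all member reads matched), the ends of each tRNA were subtracted from its total, absent rows counted as 0, and values were rounded to whole numbers for the tests. The listed precursors hold 142 to 9175 reads over the study, except mmu-mir-19a with 120.

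All 9 libraries entered 1 quasi-likelihood fit (edgeR 4.0.16, R 4.3.3; robust, TMM, filterByExpr, group as the only term), with p adjusted by Benjamini-Hochberg over 520 features and a threshold of 0.05. The common biological coefficient of variation was 0.468. Fits were tested on simulated data. CPM are those of edgeR. Alternatives were other scalings, filters and samples, DESeq2 1.42.0, summed loci, single libraries left out and the replicate number as a block. Cluster sums have no test.

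The members and lists were chosen with earlier results of these data known. Members, related loci and the 3 nearest precursors by profile are named by rule; single blood and immune markers were described after their values were seen. Deviations from group means of same-numbered libraries correlated at 0.806, 0.624 and 0.271 in old against young mice. In curcumin against young mice they correlated at 0.330, 0.193 and 0.277. Old replicate 3 correlated more with young replicate 2 (0.377) than with young replicate 3. Curcumin replicate 2 correlated more with young replicate 3 (0.219) than with young replicate 2. The labels give no further meaning to the numbers, and nothing in them ties a sample to a single animal, so p-values measure the spread between these samples.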

Additional observations from a re-analysis of the deposited data

How the results depend on the processing

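No member passed an adjusted p of 0.05 under any alternative run, and the cluster sums moved by less than 1 SD under all of theirs, an SD that for young mice includes young replicate 1. Without that library the sums set against young mice changed sign, except miR-106b-25 in miRNA RPM. The miR-17-92 difference of old minus young mice was 5.65 clean RPM without it and −10.9 with it, and 55.2 against −175 miRNA RPM. For curcumin minus young mice it was 14.9 against −1.69 clean RPM and above 0 against −136 miRNA RPM. The miR-106b-25 difference of curcumin minus young mice was 44.5 against −47.2 clean RPM, and that of old minus young mice, −78.7 with all libraries, was above 0. The count of features passing the test over all classes was 0 in each comparison and under each alternative, except 1 in curcumin against young mice with DESeq2, and 73 in curcumin against old and 67 in curcumin against young mice without the 3 libraries numbered 1. When miRNAs were fitted alone without these libraries, an alternative chosen after seeing the data, the counts were 22 and 28. The cause was not tested.

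Without the libraries numbered 1, signs turned in curcumin against old mice to 0.27 for mir-106b and in old against young mice to 0.11 for mir-17, 0.33 for mir-19b-1, 0.44 for mir-19b-2, 0.32 for mir-106b and in curcumin against young mice to 1.07 for mir-17, 1.25 for mir-19b-1, 1.30 for mir-19b-2, 0.55 for mir-92a-1, 0.59 for mir-106b, 0.43 for mir-93, 0.70 for mir-25. Without them and with miRNAs alone, signs turned in curcumin against old mice to −0.27 for mir-18a, −0.051 for mir-93 and in old against young mice to 0.10 for mir-17, 0.26 for mir-19b-1, 0.37 for mir-19b-2, 0.35 for mir-106b and in curcumin against young mice to 0.53 for mir-17, 0.69 for mir-19b-1, 0.74 for mir-19b-2, 0.046 for mir-92a-1, 0.028 for mir-106b, 0.17 for mir-25. With miRNA-read totals, signs turned in curcumin against old mice to −0.048 for mir-18a, −0.048 for mir-20a, −0.26 for mir-93, −0.059 for mir-25 and in curcumin against young mice to −0.31 for mir-20a. With TMM over miRNAs alone, they turned in curcumin against old mice to −0.046 for mir-93 and in curcumin against young mice to −0.12 for mir-20a. With clean-read totals, they turned in curcumin against old mice to 0.091 for mir-106b and in curcumin against young mice to 0.037 for mir-92a-1. With only the 2 groups compared, they turned in curcumin against young mice to 0.0019 for mir-17, 0.045 for mir-92a-1. In curcumin against young mice mir-20a, at 0.0038 in the fit reported, was −0.013 with DESeq2, −0.0025 with RLE scaling, −0.061 with genome-matched reads only, −0.018 with no filter on low counts.

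A replicate block, the number as a term, changed no call: 0 features and 0 members passed in each comparison. It turned signs in curcumin against young mice to 0.28 for mir-17, 0.32 for mir-19b-1, 0.35 for mir-19b-2, 0.15 for mir-92a-1. In curcumin against old mice the same-numbered libraries had correlations of 0.274, −0.073 and 0.368. In each comparison not every library correlated best with its own number, so the number is not taken as a pairing.

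In curcumin against old mice, leaving out each library in turn gave log2 changes of −0.43 to 0.15 for mir-106b, −0.16 to 1.12 for mir-19b-1, −0.18 to 1.05 for mir-19b-2. In old against young mice, leaving out each library in turn gave log2 changes of −1.02 to 0.35 for mir-17, −2.34 to 1.27 for mir-19a, −1.36 to 1.07 for mir-19b-1, −1.29 to 1.15 for mir-19b-2, −0.74 to 0.17 for mir-20a, −0.98 to 0.0029 for mir-92a-1, −0.76 to 0.47 for mir-106b, −1.16 to 0.092 for mir-93, −1.38 to 0.13 for mir-25, −0.0097 to 0.66 for mir-18a. In curcumin against young mice, leaving out each library in turn gave log2 changes of −0.34 to 0.96 for mir-17, −1.58 to 1.96 for mir-19a, −0.70 to 1.34 for mir-19b-1, −0.69 to 1.39 for mir-19b-2, −0.37 to 0.53 for mir-92a-1, −0.83 to 0.35 for mir-106b, −0.86 to 0.32 for mir-93, −0.88 to 0.56 for mir-25, −0.16 to 0.55 for mir-20a. For all 9 members negative in old against young mice, the sign turned without young replicate 1 in these fits with TMM scaling. Depth limits mir-19a, with 0 to 72 reads per library and the widest interval in each comparison; the intervals of the other members did not follow their read numbers.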
